A study of Mus musculus with 11 samples.

Results

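The 11 mammary tumours of this study were divided by the state of chromosome 3 at Pik3ca. Tumours 1, 2, 3 and 4 carry a called copy number gain over the gene (4 of 11), and tumours 5 to 11 do not (7 of 11). The tumours were chosen by the log2 ratios of chromosome 3 themselves, so differences on that chromosome are described without a test. The question asked of the rest of the genome is whether other changes accompany the chromosome 3 gain, first over all other autosomes and then over genes of the PI3K pathway.

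All 11 animals carry the activated Pik3ca H1047R allele on a background labelled Mixed FVBN/Bl6, and each gave 1 tumour. Genomic DNA of each tumour (Cy5) was hybridised with liver DNA of the same animal (Cy3) on an Agilent mouse genomic array. There is no group without the mutation, so both sets of tumours share the genotype, and they were divided by the chromosome 3 call. The promoter or Cre that drives the allele, the age of the animals and any treatment are not given in the sources used here.

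Pik3ca encodes p110alpha, the catalytic subunit of class I phosphoinositide 3-kinase. Activated by receptors and RAS, it makes the membrane lipid PIP3, which recruits PDK1 and AKT and through them raises mTOR activity, while lipid phosphatases remove it. The H1047R substitution makes the enzyme constitutively active and is common in human breast cancer, and mice expressing it in the mammary epithelium develop tumours.

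The locus is read by 4 array probes annotated to Pik3ca, on chromosome 3 of mouse build mm9. They are shown because the values of these probes are the direct reading of the gene by which the tumours differ. They are printed in lower case as the scanner files list them, with no strand given there and no letter marked.
A_67_P04865368: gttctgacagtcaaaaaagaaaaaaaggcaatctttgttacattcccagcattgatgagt
A_67_P00612341: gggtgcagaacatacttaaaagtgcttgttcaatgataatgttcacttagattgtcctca
A_53_P136623: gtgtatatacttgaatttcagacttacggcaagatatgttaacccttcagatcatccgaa
A_67_P04865448: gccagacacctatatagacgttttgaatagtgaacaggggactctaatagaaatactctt
In this order the probes lie at chr3:32340092-32340151, chr3:32345895-32345954, chr3:32354994-32355053 and chr3:32363520-32363579. Whether each lies in an exon or an intron was not determined, since no mm9 gene structure was used here.

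Each value is the log2 ratio of tumour over liver signal, relative to the median of its array, so a value above 0 means more DNA than in the liver. The arrays lie on 3 slides, and each slide holds tumours of both sets (2, 3 and 8 on the first, 4, 7, 9 and 11 on the second, 1, 5, 6 and 10 on the third). The noise SD between neighbouring probes ran from 0.149 to 0.275 in the gained tumours and from 0.131 to 0.553 in the others, where tumours 9 (0.553) and 11 (0.512) stood highest. Its mean did not differ beyond the spread between tumours (0.187 against 0.282, exact two-sided permutation p = 0.348, n = 4 and 7, adjusted over 2 measures of array quality 0.697). The ratios of tumour 11 correlated negatively with those of several other tumours over all probes, most strongly with tumour 9 (r = -0.652). The direction of its ratio is therefore not settled, and differences with its sign turned are given beside those in the labelled direction where turning moved them by over 1.5 times. The calls of tumours 9 and 11 rest on noisy arrays, and what their noise hid was not tested. Over all probes the highest correlations with another tumour were 0.784 for tumours 4 and 9 and 0.745 for tumour 5. What these arrays share was not tested. With a single array per animal, how precise a set mean is depends on how many tumours the set holds.

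At Pik3ca the gained tumours stood at 0.59, 0.57, 0.47 and 0.27 in tumours 1 to 4. Tumours 5 to 11 stood at 0.24, 0.26, 0.23, 0.079, 0.011, 0.087 and 0.033. The sets do not overlap at the gene, but the gap between tumour 4 (0.27) and tumour 6 (0.26) is narrower than the SD over the 4 probes of tumour 4 (0.25). The set means were 0.47 (SD 0.15, n = 4) and 0.13 (SD 0.10, n = 7).

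Among the gained tumours the 4 probes were closest to each other in tumour 2, from 0.49 to 0.63, and in tumour 1, from 0.52 to 0.68. In tumour 4 they ran from -0.056 to 0.54, and the call there is that of the surrounding segment. In tumours 9 and 11 they ran from -0.43 to 0.52 and from -0.42 to 0.59, and the means of these arrays at Pik3ca carry an SD of 0.45 and 0.52 over the probes.

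**Figure D1:**
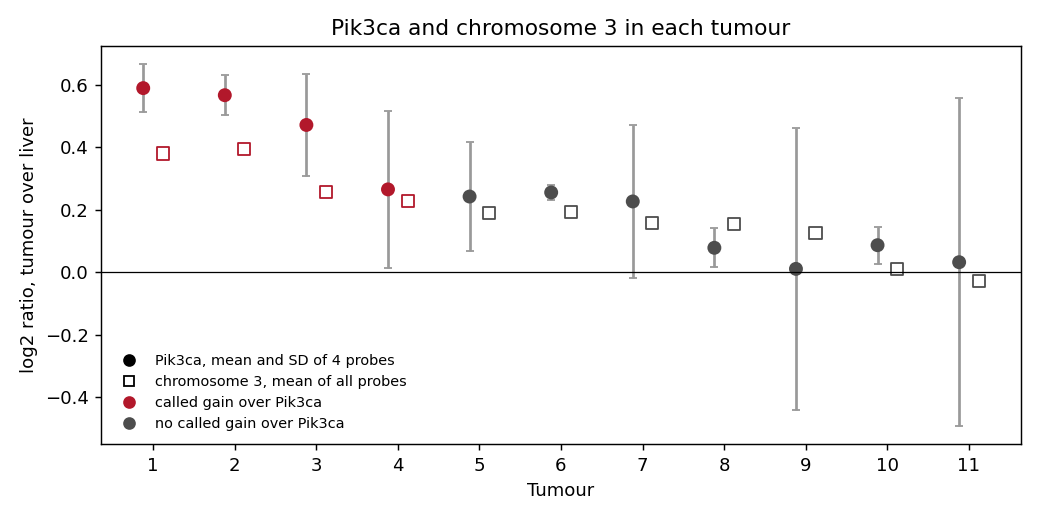
Log2 ratio of tumour over liver (vertical axis) for each of the 11 tumours (horizontal axis), with filled circles for the mean of the 4 Pik3ca probes, bars for their SD and open squares for the mean of all chromosome 3 probes. The 4 tumours with a called gain over Pik3ca (red) stand from 0.27 to 0.59 at the gene, and the 7 others (grey) from 0.011 to 0.26.

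The gains over Pik3ca differed in extent and height among the 4 tumours. The segment that covers the gene spans 29.5 Mb in tumour 1 (chr3:24672249-54167153, mean 0.40), 17.4 Mb in tumour 2 (chr3:25315693-42734988, mean 0.47), 11.3 Mb in tumour 3 (chr3:24631448-35974798, mean 0.39) and 73.9 Mb in tumour 4 (chr3:13569348-87470990, mean 0.24). Gained segments together held 99.9% of the chromosome 3 probes in tumour 2, 87.0% in tumour 4, 83.6% in tumour 1 and 32.5% in tumour 3. A nearly whole gained chromosome was thus the state of tumour 2, and a gain of the first part alone that of tumour 3.

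The highest part of the chromosome lay beside Pik3ca and not over it in tumour 3. The 4 adjoining segments from chr3:35981649 to chr3:61543273 had means of 0.62, 1.12, 0.76 and 0.63, and the gains of that tumour ended there. In tumour 1 the gain was broken between chr3:91004228 and chr3:112113219, where the 2 Mb means from 61 to 79 Mb beyond Pik3ca lay between 0.043 and 0.10, and its highest segment (0.53) followed beyond that gap. Tumour 2 had segment means from 0.25 to 0.47 and 1 short loss of 13 probes (-0.22). Tumour 4 had the lowest gains of the set, with 3 segments from 0.21 to 0.26.

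A gain was called at a segment mean of at least 0.2, and some tumours lie close to that limit. Just inside it is tumour 4, with 0.24 for the segment over Pik3ca. Just outside are tumour 6 (0.19, chr3:26118159-90337560) and tumour 5 (0.19, the whole chromosome). The mean of all chromosome 3 probes was 0.38, 0.39, 0.26 and 0.23 in tumours 1 to 4. In tumours 5 to 9 it was 0.19, 0.19, 0.16, 0.15 and 0.13, and it was 0.0098 and -0.026 in tumours 10 and 11. Tumours 5 to 9 thus lie between tumour 4 and the 2 tumours near 0, and the division parts a range of values without a wide gap.

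Tumour 6 has calls on chromosome 3 that do not reach Pik3ca. They cover chr3:3000029-23788055 (mean 0.21) and 3 short stretches (0.31, 0.30 and 0.25), together 12.4% of the probes. Tumour 7 has 1 short loss of 13 probes there (-0.22), and tumours 5, 8, 9, 10 and 11 have no call on the chromosome.

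**Figure D2:**
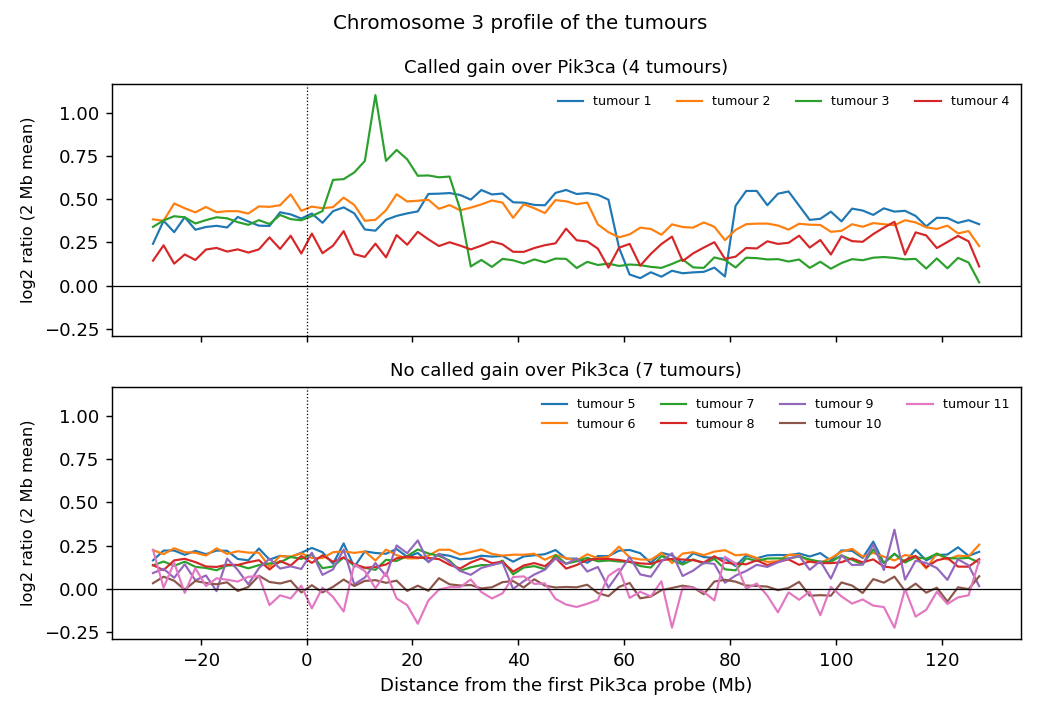
Means over 2 Mb of the log2 ratio along chromosome 3 (vertical axis) against the distance from the first Pik3ca probe in Mb (horizontal axis, dotted line at 0), one line per tumour, with the 4 tumours called gained above and the 7 others below. Tumour 3 reaches its highest segment mean of 1.12 past Pik3ca, tumour 1 drops to between 0.043 and 0.10 from 61 to 79 Mb, and tumours 5 to 8 run level near or below the limit of 0.2 over most of the chromosome.

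The neighbours of Pik3ca stood higher in the same tumours. Of 26 neighbours on the list, 23 have probes, and their means ran from 0.25 to 0.64 in the gained set and from -0.026 to 0.27 in the other. Among them are Prkci, which encodes an atypical protein kinase C (0.38 against 0.10), Ect2, a guanine nucleotide exchange factor needed in cytokinesis (0.39 against 0.079), and Mecom, a zinc finger transcription factor (0.42 against 0.11). All 4 gained tumours hold each of these 3 genes inside a called gain.

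A further 4 members of the pathway lists lie on chromosome 3, and they were covered unevenly. Foxo1, a transcription factor that AKT phosphorylates and excludes from the nucleus, stood at 0.50, 0.48, 0.56 and 0.16 in tumours 1 to 4 and between -0.013 and 0.21 in the others, and it lay in a gain in all 4. Egf, a ligand of the EGF receptor, and Eif4e, the cap-binding factor released by mTOR activity, were inside gains in tumours 1, 2 and 4 and outside them in tumour 3. Their set means were 0.26 against 0.10 for Egf and 0.33 against 0.14 for Eif4e. Nras, a RAS protein that binds p110alpha, was in a gain only in tumours 2 and 4 of the set (0.22 against 0.10, 1 probe). As these genes lie on the chromosome that defined the sets, no test of these differences is given.

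Outside chromosome 3, the share of the genome in calls did not differ between the sets beyond the spread between tumours. In the gained set, tumours 1 to 4 had 22.7%, 17.1%, 10.7% and 2.55% of the probes of the 18 other autosomes inside gains or losses. In the other set, tumours 5 to 11 had 2.40%, 10.1%, 33.6%, 37.5%, 0%, 0% and 0.344%. The 2 most altered genomes, tumours 7 and 8, have no called gain over Pik3ca, and neither have the 3 least altered ones, tumours 9, 10 and 11. This holds at the call limit of 0.2, as tumours 7 and 8 had chromosome 3 means of 0.16 and 0.15. The sets were kept fixed when other call limits were run. The means were 13.3% (SD 8.67, n = 4) and 12.0% (SD 16.5, n = 7), a difference of 1.29 percentage points (exact two-sided permutation test over 330 assignments, p = 0.873, adjusted 0.873). The medians lay further apart, at 13.9% and 2.40%. Within the slides the difference was -23.6, -8.75 and 18.5 percentage points, so its sign differed between slides, and it also turned under several other settings.

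The balance of gains and losses varied within the gained set. Losses made up nearly all of the altered share in tumour 1 (21.5% lost, 1.26% gained) and tumour 4 (2.36% and 0.194%). Gains did so in tumour 2 (16.1% gained, 1.02% lost) and tumour 3 (10.3% and 0.437%). The gained share had means of 6.97% and 4.51% in the sets (difference 2.46 points, exact permutation p = 0.458, adjusted 0.873). Within the slides this difference was -2.31, -1.96 and -1.93 points, so its sign was opposite to that over all tumours on each of the 3 slides. The lost share had means of 6.32% and 7.49% (difference -1.17 points, exact permutation p = 0.773, adjusted 0.873). With the sign of tumour 11 turned, the differences were 1.29, 2.47 and -1.18 points for the altered, gained and lost share.

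Calls were more numerous in the gained set on average, but not beyond the spread between tumours. Outside chromosome 3, tumours 1 to 4 had 8, 25, 28 and 5 gains and 36, 6, 10 and 21 losses. Tumours 5 to 11 had 0, 16, 18, 17, 0, 0 and 6 gains and 1, 6, 22, 48, 0, 0 and 3 losses. The means were 16.5 against 8.14 gains (exact permutation p = 0.215, adjusted over 4 counts 0.861) and 18.3 against 11.4 losses (p = 0.564 by the same exact test, adjusted 1). Every tumour of the gained set had calls on at least 10 of the 18 other autosomes (14, 15, 10 and 12), while the other set ran from 0 to 11. In that set tumours 6, 7 and 8 had 9, 11 and 11, close to the gained set. The 12 of tumour 4 came from 2.55% of the probes, on the array with the highest noise SD of its set (0.275). These counts were not tested.

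**Figure D3:**
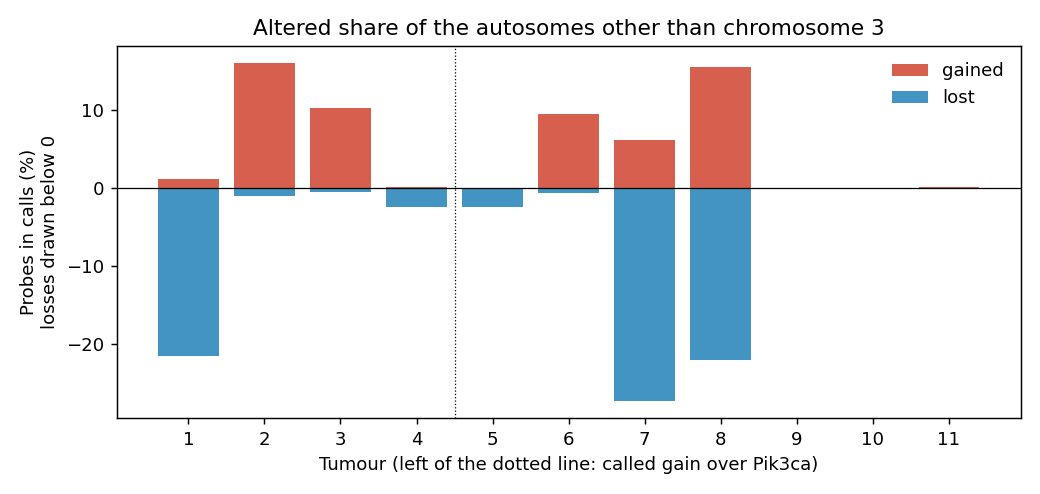
Percent of the probes of the 18 autosomes other than 3 inside called gains (red, above 0) and losses (blue, drawn below 0) in each tumour, with the 4 tumours gained over Pik3ca left of the dotted line. Tumour 1 is altered mainly by losses (21.5%) and tumour 2 by gains (16.1%). Gains and losses together are largest in tumours 7 and 8, of the set without a called gain over Pik3ca.

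No other chromosome followed chromosome 3. Of the 18 other autosomes 10 had a higher and 8 a lower mean in the gained set, and none passed an adjusted p of 0.05 in the exact permutation test (0.0%). One had an unadjusted p below 0.05 (5.56%), and the sets overlapped on all 18. The smallest p that 4 against 7 tumours can give is 0.00303, and a single chromosome at that value would have an adjusted p of 0.0545. So the test could not have passed 1 chromosome alone, and the intervals below say more than the count. In limma on the chromosome means no chromosome passed either, and 0 had an unadjusted p below 0.05, the lowest being 0.202.

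The chromosome with the lowest p was 11, which carries Trp53, Erbb2 and Nf1. Its mean was 0.0079, 0.034, 0.052 and -0.057 in tumours 1 to 4, and from -0.079 to -0.021 in the others. Tumours 1, 2 and 3 are above all 7 others, and tumour 4 is below most of them. The difference was 0.050 (exact permutation p = 0.0364, adjusted 0.655), with a 95% limma interval from -0.030 to 0.13. It was 0.067, -0.0055 and 0.045 within the 3 slides, and 0.042 with tumour 11 turned (exact permutation p = 0.127). Without tumour 4 it was 0.072, with the smallest p that 3 against 7 tumours can give (exact permutation p = 0.00833, adjusted 0.15). Each of these means and differences is below the limit of 0.2 for a call, but parts of the chromosome were called. Gains held 17.3% and 23.6% of its probes in tumours 1 and 2. Tumour 7 had 47.9% lost. Tumour 8 had 41.6% gained and 57.8% lost, which nearly cancel in its mean of -0.024. The remaining tumours had at most 3.27% gained or lost.

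Chromosome 8 was gained over most of its length in 2 of the 4 gained tumours, tumour 2 (mean 0.30) and tumour 3 (0.18), and in 1 of the 7 others, tumour 7 (0.31). Its mean was 0.10 (SD 0.17) against 0.031 (SD 0.13), and tumours 1 and 4 stood at 0.040 and -0.10. The difference of 0.072 (exact permutation p = 0.458, adjusted 0.930) had an interval from -0.095 to 0.24, which leaves room for a gain as large as the call limit. Without tumour 7 the difference was 0.12, without tumour 4 it was 0.14, and without tumour 2 it was 0.0082.

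Chromosome 15, home of Myc, was a whole gained chromosome in 2 of the 4 gained tumours (2 and 3) and in 2 of the 7 others (6 and 8). Its means were 0.16 (SD 0.11) and 0.14 (SD 0.13), a difference of 0.021 (exact permutation p = 0.800, interval -0.13 to 0.17).

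Chromosome 7 was lowest in tumour 1 (-0.37, lost as a whole) and tumour 7 (-0.32, lost as a whole), 1 of each set. Tumours 2, 3 and 4 stood at -0.16, -0.16 and -0.033, and the other tumours without a called gain over Pik3ca from -0.15 to 0.015. The difference was -0.089 (exact permutation p = 0.258, interval -0.24 to 0.062). Within the slides it was -0.0090, 0.076 and -0.32, without tumour 1 it was -0.026, and without tumour 4 it was -0.14. Without tumour 7 it was -0.13 (exact permutation p = 0.0476, adjusted 0.557).

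Further large changes lay in tumour 1 of the gained set. It lost chromosome 16 as a whole (-0.36) and most of chromosomes 13 (78.2% of its probes) and 6 (59.7%). Tumour 7 had lost chromosomes 6 and 13 too, without a called chromosome 3 gain. Tumour 4 had no chromosome other than 3 gained or lost over at least 50% of its probes. Across 18 chromosomes the profiles of 2 gained tumours resembled each other no more than others did, with a median Pearson r of 0.14 over the 6 pairs of gained tumours, 0.17 over the 21 pairs of the other set and 0.28 over the 28 mixed pairs. The highest r was 0.82, between tumours 4 and 5, a mixed pair. Pairs share tumours and these correlations are given as a description only.

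**Figure D4:**
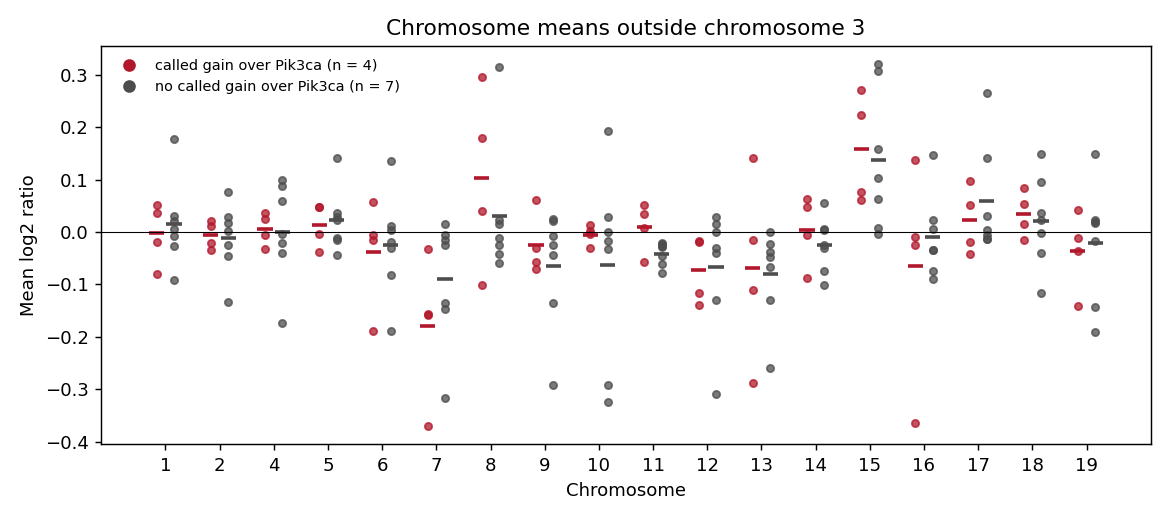
Mean log2 ratio (vertical axis) of the 18 autosomes other than 3 (horizontal axis), one point per tumour and a bar for the mean of each set, with the 4 tumours gained over Pik3ca in red and the 7 others in grey. The points of the sets overlap on all 18 chromosomes, and chromosome 11 has the lowest p (difference 0.050).

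At a finer scale the 471 bins of 5 Mb outside chromosome 3 gave the same picture. None passed an adjusted p of 0.05 in limma (0.0%), 6 had an unadjusted p below 0.05 (1.27%), and in none did the sets separate (0.0%). No bin outside chromosome 3 was called in 3 or in all 4 gained tumours. Gains shared by 2 of the 4 covered 48 bins, of which 21 lay on chromosome 15, 17 on chromosome 8, 5 on chromosome 6 and 4 on chromosome 11. Losses shared by 2 covered 6 bins, 5 of them on chromosome 7.

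The bin with the lowest p was the start of chromosome 6 (chr6:1-5000000). It stood at 0.056, 0.23, 0.27 and 0.0084 in tumours 1 to 4, and in the other set from -0.35 in tumour 7 to 0.019 in tumour 11. Gains were called there in tumours 2 and 3 and a loss in tumour 7. The difference was 0.23 (interval 0.077 to 0.39, limma adjusted p = 0.222). On chromosome 9 the bin chr9:10000001-15000000 had a difference of 0.29, with 0.72 in tumour 3 and 0.034, 0.073 and 0.034 in tumours 1, 2 and 4. On chromosome 7 the bin chr7:45000001-50000000 had a difference of -0.18, with -0.46, -0.22, -0.19 and -0.071 in tumours 1 to 4.

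Among 8480 autosomal genes outside chromosome 3 with at least 3 probes, none was called at a limma adjusted p below 0.05 and a difference of at least 0.1 (0.0%), and the lowest adjusted p was 0.236. An unadjusted p below 0.05 was reached by 174 genes (2.05%), 111 of them higher in the gained set (1.31%) and 63 lower (0.743%). That share of genes is smaller than the 0.05 that chance alone gives on average. The sets did not overlap in 29 genes (0.342%). The median difference was 0.011, and the median interval reached 0.21 to either side of a gene's difference. On chromosome 3 itself, which defined the sets, the 487 genes had a median difference of 0.20. They were part of the same fit, and none of them was called either. The absence of calls elsewhere therefore does not show that differences of this size were absent. Chromosome 6 held 43 and chromosome 9 held 22 of the 111 higher genes, and chromosome 7 held 25 of the 63 lower ones, the chromosomes of the bins above. Chromosomes 1, 2, 4, 5 and 11 each had more genes tested than chromosome 6, 7 or 9. Neighbouring genes share segments, so these counts do not stand for independent changes.

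The 5 higher genes with the lowest p all lay on chromosome 6, and none passed the adjusted test. The transcript ENSMUST00000115107 (chr6:31127029-31164897, 4 probes) stood at 0.21, 0.45, 0.31 and 0.069 in tumours 1 to 4 and from -0.33 to -0.036 in the others. The sets did not overlap (difference 0.43, limma adjusted p = 0.236), and within the slides the difference was 0.46, 0.31 and 0.34. With tumour 11 turned it was 0.38 (adjusted 0.384), and over 20 settings it ran from 0.32 to 0.49 with adjusted p from 0.0987 to 1.00.

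C1galt1, which adds galactose in O-glycan synthesis (chr6:7805389-7818854, 3 probes), stood at 0.30, 0.33, 0.29 and 0.77 against -0.49 to 0.14. The 0.77 of tumour 4 carried an SD of 1.49 over its 3 probes, while the SD in tumours 1 to 3 was 0.17 or less. The difference was 0.55 (limma adjusted p = 0.369), and 0.43 without tumour 4. Tmem168, a membrane protein gene (difference 0.32), Col1a2, which encodes the alpha-2 chain of type I collagen (0.33), and Zfp800, a zinc finger gene (0.43), each had a limma adjusted p of 0.461. For Col1a2 the 4 gained tumours stood from 0.11 to 0.23 and the others from -0.34 to 0.072, and with tumour 11 turned its difference was 0.23.

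The 5 lower genes with the lowest p were Prdm9 on chromosome 17 and 4 genes of chromosome 7. Prdm9 marks the sites of meiotic recombination, and its allele differs between mouse strains. It stood at -0.050, -0.23, -0.053 and -0.27 in tumours 1 to 4 and from -0.031 to 0.43 in the others (difference -0.34, limma adjusted p = 0.504). On chromosome 7 the transcript ENSMUST00000060569 (-0.28), the vomeronasal receptor genes Vmn2r57 (-0.29) and Vmn2r60 (-0.31), and Gm5584 (-0.29) had limma adjusted p from 0.555 to 0.611. The vomeronasal receptors belong to a large family of near copies that a probe may not tell apart. For Vmn2r60 tumour 1 was lowest at -0.47, tumours 2, 3 and 4 stood at -0.28, -0.23 and -0.15, and of the other set tumour 7 alone (-0.27) overlapped them.

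The PI3K pathway was read through 9 lists with 98 genes. Of these 87 were tested outside chromosome 3, 5 lie on it and 6 have no probe of their own. None of the 87 was called and none had an unadjusted p below 0.05 in limma, beside 0.0% and 2.05% of all 8504 genes in the same fit. The difference was above 0 in 57 (65.5%) and below 0 in 30, with a median of 0.035, beside 4691 above 0 (55.2%) and a median of 0.011 over all 8504 genes. These counts, and those per list below, are in the labelled direction of tumour 11, and some genes changed sign with it turned. The lowest adjusted p was 1.00, and with tumour 11 turned it was 0.475, again with no gene called. Among these genes no accompanying change passed the test. Pik3ca itself, with a difference of 0.34, was not called in that fit, so the count does not show that changes were absent.

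Seen one tumour at a time, gains covered 22 of the 87 pathway genes (25.3%) in at least 1 of the 4 gained tumours, beside 17.98% of all 8504 genes. In at least 1 of the 7 others they covered 28 (32.2%), beside 26.9%. Losses covered 28 (32.2%) in the gained set, beside 25.5%, and 41 (47.1%) in the other, beside 43.9%. Neighbouring genes share a call, and these shares are a description. These were mostly parts of large changes, such as the gain of chromosome 8 in tumours 2, 3 and 7, and the loss of chromosome 7 in tumours 1 and 7. On chromosome 7 these losses held Akt2, Igf1r, Gab2, Fgfr2 and Pik3c2a.

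Ligands and receptors open the pathway. Of 7 ligand genes tested, 5 had a difference above 0, with a median of 0.063, and none passed. Igf1, the ligand of the IGF1 receptor, stood at 0.13, 0.27, -0.095 and 0.15 in tumours 1 to 4, and from -0.48 in tumour 8 to 0.18 in tumour 6 (difference 0.23, limma adjusted p = 1.00). The low values were those of tumours 7 and 8, which had lost chromosome 10. Nrg1, a ligand of ERBB3 and ERBB4, stood at 0.58 in tumour 2 and 0.35 in tumour 3, both inside the chromosome 8 gain, and at 0.37 in tumour 7. Tumours 1 and 4 stood at 0.16 and 0.068, and tumour 4 had a loss called over the gene. The difference was 0.25 (interval -0.037 to 0.53), and 0.13 with tumour 11 turned. Hgf, the ligand of MET, ran from 0.057 to 0.29 in the gained set and from -0.22 to 0.33 in the other (difference 0.13, and 0.061 with tumour 11 turned).

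Of 18 receptor and adaptor genes, 11 had a difference above 0, with a median of 0.021. Irs2, an adaptor of the insulin and IGF1 receptors, had the lowest p of the pathway genes (difference 0.25, interval -0.0066 to 0.50, limma adjusted p = 1.00). It rests on 1 probe and stood at 0.52 in tumour 2 and 0.26 in tumour 3, but at 0.015 and -0.085 in tumours 1 and 4. With tumour 11 turned its difference was 0.15. Pdgfrb, a receptor for platelet-derived growth factor, had a difference of 0.18 and Gab1, a docking protein of receptor complexes, one of 0.16, and the sets overlapped for both.

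Met, the receptor of hepatocyte growth factor, was the most strongly gained gene of the lists. Its amplification occurred with and without a called gain over Pik3ca. One of the 4 gained tumours had it, tumour 3 at 3.02, and 3 of the 7 others, tumours 6, 7 and 8 at 3.38, 2.04 and 5.30. The chromosome 3 means of tumours 6, 7 and 8 were 0.19, 0.16 and 0.15, above 0 but below the call limit of 0.2. Tumours 1, 2 and 4 stood at 0.21, 0.38 and 0.15. The set means were 0.94 (SD 1.39, n = 4) and 1.53 (SD 2.13, n = 7), with a difference of -0.60 and an interval from -2.59 to 1.40 (limma adjusted p = 1.00). Without tumour 8 the difference was 0.032.

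The remaining subunits of the kinase showed no shared change. Of 6 further catalytic genes 3 had a difference above 0, with a median of 0.013. Pik3c3, the class III enzyme of endosomes and autophagy, stood at 0.10, 0.14, 0.15 and -0.042 in tumours 1 to 4 and from -0.22 to 0.15 in the others. Pik3c2a, a class II enzyme, stood at -0.36, -0.19, -0.12 and -0.34 against -0.46 to 0.57, where the 0.57 was that of tumour 11. With tumour 11 turned its difference of -0.17 became -0.0073. The gained set's values of Pik3c2g, a further class II gene, were led by -0.38 in tumour 1, inside a loss of chromosome 6.

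The regulatory subunits bind and stabilise p110, and 5 of 8 genes had a difference above 0 (median 0.046). Pik3r1, which encodes p85alpha, the main partner of p110alpha, was changed in opposite directions within the gained set. It stood at -0.39 in tumour 1, inside a loss of chromosome 13, and at 0.29 in tumour 2, inside a gain. Tumours 3 and 4 stood at -0.21 and -0.055, and the other set from -0.36 to -0.044. The difference was 0.12 (interval -0.11 to 0.36, limma adjusted p = 1.00), and without tumour 2 it was -0.0041. Pik3r2, which encodes p85beta (1 probe), stood at 0.33 in tumour 2, 0.067 in tumour 3 and 0.38 in tumour 7, which hold it in a chromosome 8 gain, and at 0.67 in tumour 11, which has no such gain. Its difference was 0.17, and 0.36 with tumour 11 turned. Pik3r6, a partner of p110gamma, was lowest in tumour 7 (-0.60), and its difference of 0.12 became 0.20 with tumour 11 turned.

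The phosphatases oppose the kinase, and 7 of 9 had a difference above 0 (median 0.062). Inpp4b, an inositol polyphosphate 4-phosphatase read by 43 probes, stood at 0.26 and 0.25 in tumours 2 and 3, at 0.060 and 0.0064 in tumours 1 and 4, and at 0.29 in tumour 7. Its difference was 0.13 (interval -0.053 to 0.32, limma adjusted p = 1.00). Inpp5j (1 probe) and Inpp5k (2 probes), phosphatases of PIP3, had differences of 0.21 each, with intervals that include 0. For Inpp5j the difference was 0.094 with tumour 11 turned. For Inpp5k, the value of tumour 11 was 0.92, and with its sign turned the difference was 0.47 (limma adjusted p = 0.475).

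Of the kinases downstream, PDK1, AKT, SGK and GSK3, 3 of 8 had a difference above 0 (median -0.014). With tumour 11 turned the 5 below 0 rose above it, among them Sgk3 (0.061) and Gsk3b (0.0074). Akt1 rests on 1 probe and was measured poorly (difference -0.024, interval -0.61 to 0.56, and 0.31 with tumour 11 turned). Akt2 stood at -0.32 in tumour 1 and -0.28 in tumour 7, inside their chromosome 7 losses, and its difference was -0.036 (interval -0.24 to 0.16), or 0.014 with tumour 11 turned. Sgk1, a kinase related to AKT, had a difference of 0.12 and Sgk2 one of -0.044, which became 0.021 with tumour 11 turned.

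In the mTOR branch 14 of 17 differences were above 0, with a median of 0.054, beside the 55.2% above 0 over all genes. With tumour 11 turned, Mapkap1 (-0.0030), Tbc1d7 (-0.048) and Rps6kb1 (-0.072) fell below 0, and no gene of this list rose above it. Rictor, the defining subunit of mTOR complex 2, lies on chromosome 15 and stood at 0.20, 0.26, 0.37 and 0.13 in tumours 1 to 4, and from -0.11 to 0.36 in the others. Tumours 2 and 3 held it in a gain, and so did tumours 6 and 8 (difference 0.16, interval -0.047 to 0.37, limma adjusted p = 1.00). Tsc2, which restrains mTOR complex 1, had a difference of 0.15 with 0.48 in tumour 3, where its 4 probes had an SD of 0.81. Rps6, the ribosomal protein phosphorylated by S6 kinase (1 probe), stood at 0.62 in tumour 3 inside a gain of chromosome 4 and from -0.063 to 0.15 in tumours 1, 2 and 4. Its difference was 0.21, and 0.12 with tumour 11 turned. Rptor, the subunit of mTOR complex 1 with 32 probes, was inside a gain in tumours 1 and 2 (0.22 and 0.34) and in tumour 8 (0.29), with a difference of 0.12. Mtor itself had a difference of 0.069 (interval -0.15 to 0.29), or 0.13 with tumour 11 turned.

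The FOXO factors outside chromosome 3 were 2. Foxo3 stood at 0.13, -0.12, 0.12 and -0.019 in the gained set (difference 0.12, interval -0.13 to 0.36). Foxo6 has 1 probe and a difference of -0.34, which became 0.0021 with tumour 11 turned.

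The RAS and MAPK branch, which p110alpha joins through RAS, had 8 of 12 differences above 0 (median 0.016). Nf1, which switches RAS off, was at -0.98 in tumour 1 within a loss of 0.845 Mb, and from -0.16 to 0.10 in the other gained tumours. The other set ran from -0.44 to 0.33, so a strong loss was seen in 1 of the 4 and none of the 7. The difference was -0.17 (interval -0.56 to 0.22), and without tumour 1 it was 0.074. Braf, Map2k2 and Rasa1 had differences of 0.12, 0.18 and 0.11, with intervals that include 0, and with tumour 11 turned those of Map2k2 and Rasa1 were 0.076 and 0.055.

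**Figure D5:**
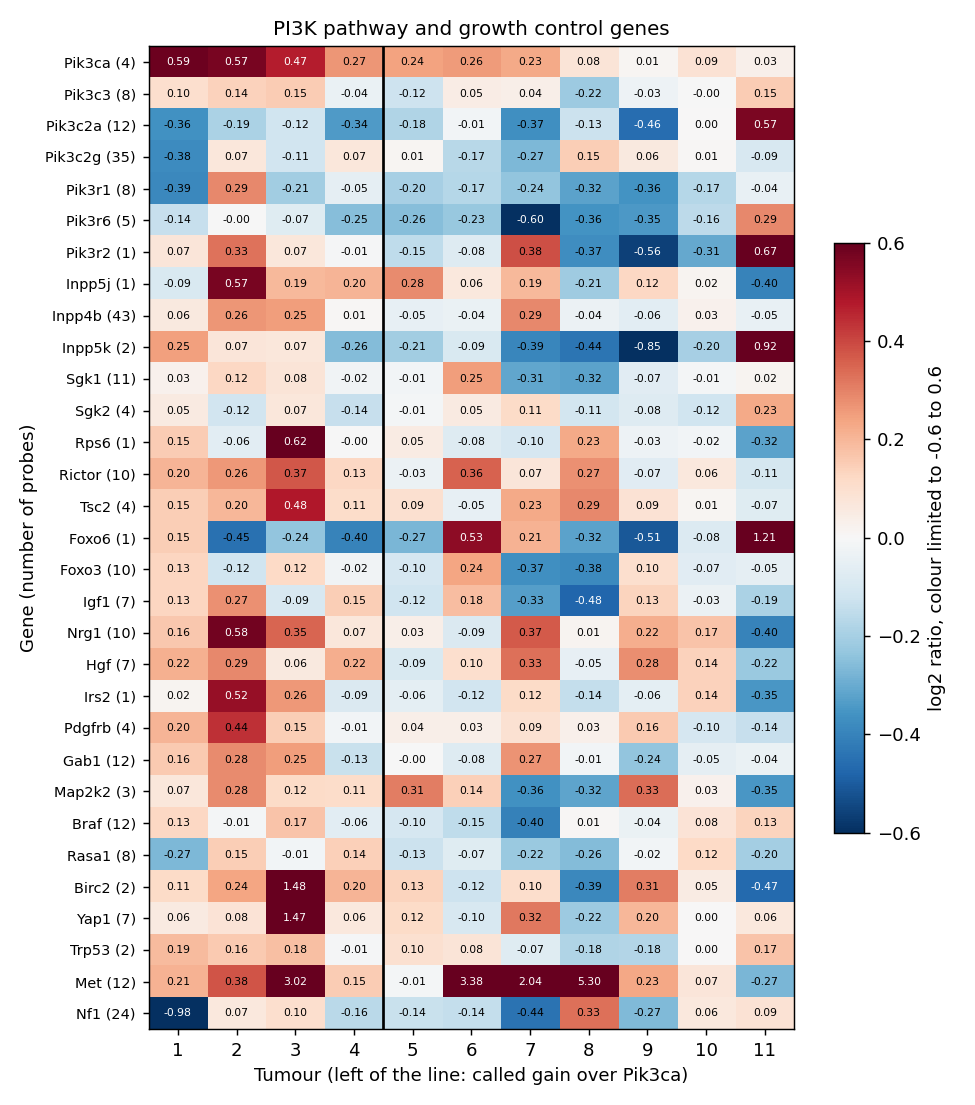
Log2 ratio of tumour over liver for Pik3ca and 30 further named genes of the PI3K, RAS and cell cycle lists (rows, probe numbers in brackets) in the 11 tumours (columns), with the 4 tumours gained over Pik3ca left of the line and the colour limited to -0.6 to 0.6. Pik3ca runs from 0.27 to 0.59 on the left, Met exceeds 2 in tumours 3, 6, 7 and 8, and no row below Pik3ca separates the sets.

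Cell cycle, survival and tumour suppressor genes were read as a comparison list. Of 17 genes 13 were tested, none was called and 1 had an unadjusted p below 0.05. That gene was Birc2, an inhibitor of apoptosis, with a difference of 0.56 (limma adjusted p = 0.872). It came from the focal gain of tumour 3, which stood at 1.48 for Birc2 and 1.47 for its neighbour Yap1, a transcriptional co-activator of the Hippo pathway. Without tumour 3 the differences were 0.24 and 0.013. Trp53, which encodes p53, stood at 0.19, 0.16, 0.18 and -0.0062 in tumours 1 to 4 and from -0.18 to 0.17 in the others (2 probes, difference 0.14, interval -0.042 to 0.33). No gained tumour had a loss called over it, while tumours 7 and 8 of the other set had one (segment means -0.32 and -0.28). Ccne1 (1 probe) lay in losses of tumours 1, 2 and 7.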

How the data were processed

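Per the file headers, each deposited scanner file gives red (tumour) and green (liver) intensity per spot after background subtraction and linear dye normalisation by the scanner software, Agilent Feature Extraction 10.5.1.1 or, in tumours 4, 7, 9 and 11, 11.0.1.1. The deposited LogRatio column is the log10 of red over green and held 0 at 2812 spots of tumour 2 where the signals differed, against at most 359 elsewhere. The authors' value table is on the log2 scale (column medians -0.0491 to 0.0213) and served as an alternative. It correlated with the scanner ratios at r = 0.965 in tumour 2 and at 0.998 or more in the others. Partek is named in the submitters' processing notes without a version. Positions are mm9, per the file headers.

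The log2 ratio of processed intensity was averaged per probe, without control spots, outlier spots or chromosome Y, and the array median was subtracted, giving 170183 probes, 151997 of them autosomal outside chromosome 3. None of the 174305 spots per array was saturated, and 0.0803% to 12.8% were not well above background. Segments came from exact optimal partitioning (penalty factor 2, at least 5 probes), and calls needed 10 probes and a mean of at least 0.2. Focal means at most 10 Mb and at least 0.6, whole at least 80% of probes.

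The sets were compared by exact two-sided permutation tests (shares, chromosomes) and limma 3.58.1 with statmod 1.5.0 in R 4.3.3 (genes of at least 3 probes, 5 Mb bins of at least 10 probes), each with Benjamini-Hochberg adjustment. List genes of 1 or 2 probes were added in a second fit. A difference is the mean of the gained tumours minus that of the others, and intervals are at the 95% level from limma. Scripts were tested on simulated data. Other steps ran in Python 3.11.15 (scipy 1.17.1, numba 0.67.0, numpy 2.4.6, matplotlib 3.10.9, pandas 2.3.3).

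The tumours and gene lists were chosen with earlier results of these data known. Of 141 list genes 127 matched the array by symbol and 1 by an older symbol (RefSeq gene table, used for names only). Named genes are Pik3ca, up to 3 per list with the lowest p, list genes in focal calls, and the 5 higher and 5 lower genes with the lowest p and a difference of at least 0.1. Neighbours on chromosome 3, other chromosome 3 members, Akt1, Akt2, Mtor, Rptor and Ccne1 were named in addition, after their values were seen. Alternatives were normexp background correction, no dim probes, other centrings, the authors' table, tumour 11 turned, each tumour or tumours 9 and 11 left out, other penalties, call limits, bins and probe minimums, and slide as a block. The permutation within slides was added after the data were seen. Some genes that the rule names are not reported here.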

Additional observations from a re-analysis of the deposited data

Results flagged for a closer look

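The 11 values below stood apart from the rest of their set by the gap to the nearest other tumour relative to the range of the set (Dixon's 95% limit). Chance alone gives about 1 in 20 such values, and 130 sets of values were examined. In the gained set, tumour 1 stood apart by its lost share outside chromosome 3 (21.5%) and tumour 4 by its noise SD (0.275). Tumour 4 also stood apart for Trp53 (-0.0062), below the other 3, and for C1galt1 (0.77), which rests on 3 probes with an SD of 1.49. Tumour 3 stood apart for Birc2 (1.48), Yap1 (1.47) and Met (3.02), each inside a focal gain. In the set without a called gain over Pik3ca, tumour 7 stood apart for the mean of chromosome 8 (0.31), for Inpp4b on that chromosome (0.29) and for Zfp800 (-0.54). Tumour 11 stood apart for Inpp5k (0.92), whose sign depends on the unsettled direction of that array.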

How the results depend on the processing

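No chromosome, gene, pathway gene or 5 Mb bin outside chromosome 3 was called under any setting run, with lowest adjusted p from 0.15 to 1 for chromosomes, 0.0965 to 1.00 for genes, 0.475 to 1.00 for pathway genes and 0.123 to 0.997 for bins. The altered share outside chromosome 3 had no stable sign. Its difference of 1.29 points became -2.56 with normexp background correction, -0.757 with mode centring, -3.44 without tumours 9 and 11, -1.19 and -0.806 at call limits of 0.15 and 0.3, and -3.87 with slide as a fixed block, and leaving out each tumour in turn gave -1.85 to 5.55. The gained share outside chromosome 3 (2.46) became -1.07 with normexp, -0.210 and -1.42 at call limits of 0.15 and 0.3, and -2.06 with slide as a fixed block (-0.587 to 4.72 leaving out each tumour). The lost share outside chromosome 3 (-1.17) became 0.613 at a call limit of 0.3 (-6.22 to 2.13 leaving out each tumour). The cause of these changes was not tested. Of 816 values of 41 named genes under other settings, 810 kept their sign. The 6 that turned were Pik3c2g without tumour 1 (leaving out each tumour, -0.097 to 0.053), Pik3r1 without tumour 2 (-0.0041 to 0.22), Met without tumour 8 (-1.29 to 0.032), Nf1 without tumour 1 (-0.29 to 0.074), and, with tumour 11 turned, Sgk2 (0.021) and Foxo6 (0.0021). The 0.15 for chromosomes comes from the smallest p that 3 against 7 tumours can give (0.00833). Tumours 9 and 11 have the highest noise. The limma interval of a typical gene, which is not adjusted for the number of genes, reached 0.21 to either side. A smaller difference could not be told from 0 for such a gene. A difference above 0.21 could still miss the adjusted test. Those of ENSMUST00000115107 (0.43, limma adjusted p = 0.236) and C1galt1 (0.55, limma adjusted p = 0.369) were not called. No paired analysis of the sets was possible because each animal gave 1 tumour and so belongs to 1 set only.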

Other observations

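Genes whose values separated the sets without passing the adjusted test lay most often on chromosome 6. Of the 29 genes outside chromosome 3 whose sets did not overlap (0.342% of those tested), 12 lay on chromosome 6, 11 of them higher in the gained set. Besides those named in the report they include Calcr, the calcitonin receptor (0.16 against -0.15, 10 probes), Hipk2, a nuclear kinase (0.18 against -0.11, 18 probes), Slc25a13, a mitochondrial aspartate-glutamate carrier (0.16 against -0.12, 17 probes), Foxp2, a forkhead transcription factor (0.17 against -0.092, 53 probes), and Exoc4, a subunit of the exocyst (0.15 against -0.077, 77 probes). Calcr, Slc25a13 and Foxp2 lie in the first part of chromosome 6, where tumours 2 and 3 had called gains and tumour 7 a called loss. Chromosome 6 as a whole had no such difference (-0.014, limma interval -0.14 to 0.11). Outside chromosome 6, Bmper on chromosome 9, a BMP-binding protein, stood at 0.096 against -0.12 with 27 probes, and Pak2 on chromosome 16, a kinase activated by RAC and CDC42, at -0.20 against 0.047 with 6 probes. These genes were chosen after their values were seen, and neighbouring genes share segments, so they do not count as independent.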
